A study of Mus musculus with 3 samples.

Results

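This account follows 9 genes of interferon reception among the 25638 genes of a count table from mouse CD8+ T cells. They were taken by name, but with earlier results of these data known. They are the receptor chains Ifnar1, Ifnar2, Ifngr1 and Ifngr2, the kinases Jak1 and Jak2, and the transcription factors Stat2, Irf9 and Irf1. All 9 were in the table and reached 5 CPM (CPM being counts scaled to a common library size) in at least 1 library, and 8 of them did so in all 3. Ifngr2 did so in the naive library alone.

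The sources used here give all groups as wild-type and untreated. The memory libraries nevertheless differed from naive in receptor segment use and division, as given further on. The cells were CD8+ T cells sorted out of mouse spleen. Total RNA and a TruSeq RNA kit gave 1 library each of naive, central memory and effector memory cells. The same sources do not give the sorting markers, the mouse strain and age, how the memory cells arose or how many animals were pooled. With 1 library per group nothing below has a replicate check: values are levels in single libraries, intervals are 95% exact counting intervals, and no p-value is given. A call of higher or lower is a rule of size: the larger of the compared levels is 5 CPM or more, the ratio is 2 or more, and its interval does not hold 1.

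Interferons signal through paired receptor chains that carry Janus kinases. Type I interferons bind IFNAR1 and IFNAR2, and the kinases on these chains phosphorylate STAT2, which joins IRF9 in the complex ISGF3 at interferon-stimulated response elements (ISRE). Interferon gamma, made by T cells and NK cells, binds IFNGR1, which carries JAK1, and needs IFNGR2, which carries JAK2, to signal. The signal then reaches gamma-activated sequences (GAS), among others in the gene of the transcription factor IRF1. IFNGR1 is widely made, while IFNGR2 is often the limiting chain in T cells.

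The promoters of the receptor genes are shown because chains of one receptor had different levels across the libraries, as given further on. The RefSeq promoter table (GRCm38.p6) matched 9 of 9 genes, with 11 windows of 250 bases before to 50 bases after a start. The lines give the 250 bases before the start, 5′ to 3′ on the plus strand. Ifnar1 lies at chr16:91484965-91485214, Ifnar2 at chr16:91372533-91372782, Ifngr1 at chr10:19591699-19591948 and Ifngr2 at chr16:91546809-91547058. For the transcription factors Irf1 (chr11:53769899-53769957) and Stat2 (chr10:128270252-128270310) only 59 bases around a motif match are given. Capitals mark a match to GAS (TTCNNNGAA, the same on both strands) or to the ISRE core (GAAANNGAA, searched on both strands). In Ifnar1 the GAS match runs across the start and only its part before the start is shown.
Ifnar1: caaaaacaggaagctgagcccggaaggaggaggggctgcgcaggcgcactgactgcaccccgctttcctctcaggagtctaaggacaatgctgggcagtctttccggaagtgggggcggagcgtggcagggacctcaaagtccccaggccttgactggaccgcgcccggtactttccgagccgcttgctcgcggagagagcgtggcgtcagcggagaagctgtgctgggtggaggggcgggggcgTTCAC
Ifnar2: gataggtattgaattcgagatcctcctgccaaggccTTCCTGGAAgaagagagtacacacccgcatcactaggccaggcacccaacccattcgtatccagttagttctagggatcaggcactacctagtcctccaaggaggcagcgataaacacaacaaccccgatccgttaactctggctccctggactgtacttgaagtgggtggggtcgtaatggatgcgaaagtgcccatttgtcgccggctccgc
Ifngr1: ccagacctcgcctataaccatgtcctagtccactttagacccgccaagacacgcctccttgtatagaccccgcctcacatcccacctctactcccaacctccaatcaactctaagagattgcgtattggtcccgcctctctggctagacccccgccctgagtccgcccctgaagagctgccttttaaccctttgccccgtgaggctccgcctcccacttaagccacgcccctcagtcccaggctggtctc
Ifngr2: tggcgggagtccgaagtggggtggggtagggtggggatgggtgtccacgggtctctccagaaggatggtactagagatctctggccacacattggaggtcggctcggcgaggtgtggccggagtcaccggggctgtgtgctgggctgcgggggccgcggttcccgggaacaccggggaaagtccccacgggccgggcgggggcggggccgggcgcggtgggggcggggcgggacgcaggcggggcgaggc
Irf1: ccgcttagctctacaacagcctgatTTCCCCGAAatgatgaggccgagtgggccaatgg
Stat2: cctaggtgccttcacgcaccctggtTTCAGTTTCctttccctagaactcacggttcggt

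A match was found in 4 of the 9 genes. The GAS match of Irf1 read TTCCCCGAA at bases -90 to -82 before the start (-1 is the last base before it), and that of Ifnar2 read TTCCTGGAA at -214 to -206. In Ifnar1 it read TTCACGGAA from -5 to 4. Stat2 held the ISRE core on the minus strand, read as TTCAGTTTC on the plus strand at -221 to -213. Neither string was in the windows of Ifngr1, Ifngr2, Irf9, Jak1 or Jak2. By the gene coordinates given further on, the windows of Irf9 lie inside the gene and that of Jak1 overlaps its start. The other window of Irf1, which held no match, also lies inside its gene. Of 32851 promoter windows of this length in the table, 8.30% held the GAS string and 8.56% the ISRE core. GC content of the 250 bases was 74.0% in Ifngr2 with 25 CpG, against 59.2% and 11 CpG in Ifngr1, and the median over all windows was 52.4% and 6. These matches describe letters only. No binding was measured.

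Library totals ran from 26876909 counts in naive to 35846315 in central memory, and a count of 0 allowed at most 0.0837 to 0.108 CPM (3 counts). The T cell gene Cd3e stood at 395, 418 and 334.5 CPM in naive, central and effector memory, and the memory marker Cd44 at 2.95, 45.8 and 113 CPM. The CD8 genes were detected in all 3 libraries but lower in effector memory: Cd8a stood at 1868, 1063 and 408 CPM, 4.58-fold below naive there (4.49 to 4.66), and Cd8b1 at 1055, 540 and 275.5 CPM, 3.83-fold below (3.74 to 3.92). Both of these were called. Cd8b1, Mki67, Trbv12-1, Zbtb7b, Cd68, Lyz2, Csf1r and Xcr1 are named here after their values were seen. The proliferation gene Mki67 stood at 2.62, 301.5 and 1819 CPM. The beta chain segment Trbv12-1 gave 7.13% of Trbv counts in naive but 99.65% and 98.4% in the memory libraries. CD8 gene levels, receptor use and division thus differed along with the labels, and their part in the results was not tested. Of the other cell types, the CD4 list reached 7.73, 39.7 and 94.3 CPM summed over 4 of 4 markers detected. Nearly all of it in the memory libraries was Zbtb7b, at 1.33, 37.4 and 93.6 CPM, and Cd4 itself was at 2.12, 0.251 and 0.281 CPM. Macrophage markers summed to 7.58, 7.93 and 22.3 CPM (4, 4 and 2 of 5 detected), with Adgre1 at 0 throughout. Nearly all of the effector memory sum was Cd68, at 3.38, 4.05 and 21.1 CPM, while Lyz2 and Csf1r were at 0 there. Dendritic markers summed to 3.02, 2.23 and 12.5 CPM (3, 2 and 2 of 5), with Flt3 and Siglech at 0 throughout. Here Xcr1, at 2.01, 1.56 and 12.3 CPM, made nearly all of the effector memory sum. Erythroid markers summed to at most 1.33 CPM.

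The receptor for interferon gamma had the widest differences among the 9 genes, and its chains differed in opposite directions. Ifngr1, the ligand-binding chain (ENSMUSG00000020009.13, chromosome 10, 19591949 to 19610229), had 3785, 17283 and 13180 counts in naive, central memory and effector memory. These are 136, 482.5 and 412 CPM, so that naive was the low library and both memory libraries lay above it. Central memory was 3.55-fold higher than naive (interval 3.42 to 3.68) and effector memory 3.03-fold higher (2.92 to 3.14), and both differences were called. Effector memory was 1.17-fold lower than central memory (1.14 to 1.198), which was not called.

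Ifngr2, the chain that brings JAK2 (ENSMUSG00000022965.8, chromosome 16, 91547072 to 91565623), had 1197, 85 and 107 counts in the same order, or 43.0, 2.37 and 3.35 CPM. Naive was the high library here. Central memory was 18.1-fold lower (interval 14.5 to 22.9) and effector memory 12.9-fold lower (10.5 to 15.8). Of the genes measured, 0.719% of 9737 in the first comparison and 1.78% of 10087 in the second were at least as far below naive. Since Ifngr2 reached 5 CPM through naive alone, it had to be lower in memory, and its calls and these shares are a description. Both memory levels were over the limit of a count of 0 but under 5 CPM, so the 1.41-fold difference between them (1.05 to 1.90) could not be called. In bulk RNA fewer cells with the transcript and less transcript per cell cannot be told apart.

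Marker sums of other cells moved along with both chains. The B cell list summed to 30.5, 6.17 and 2.81 CPM in naive, central memory and effector memory (5, 3 and 2 of 5 markers detected), in the same order of naive over memory as Ifngr2. Ms4a1, which marks B cells, had 95 counts in naive and was at 0 in both memory libraries. The NK cell list summed to 0.503, 62.1 and 13.8 CPM (2, 5 and 3 of 5 detected), the library order of Ifngr1. Ncr1 and Klra8, which mark NK cells, were at 0 in naive and effector memory. Klrb1c and Klri2 of that list were also highest in central memory. Fcer1g went another way, at 0.288, 7.96 and 10.4 CPM in naive, central memory and effector memory, and made most of the effector memory sum. Klrb1c, Klri2 and Fcer1g are named after their values were seen. What part RNA from such cells had in the 2 chains was not tested.

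**Figure D1:**
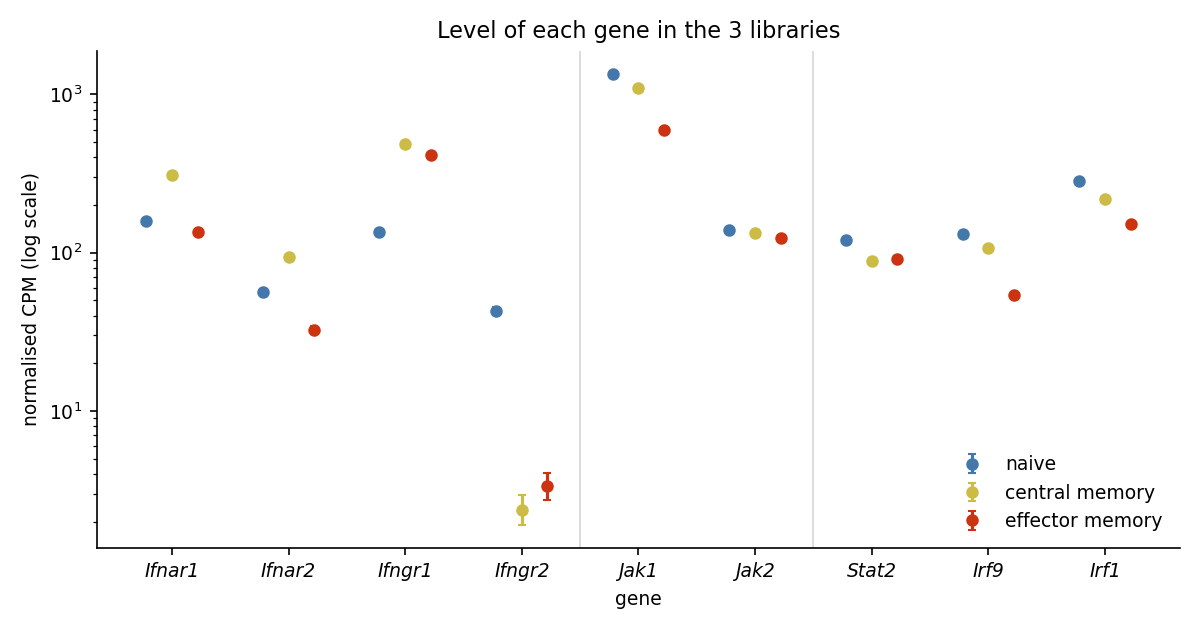
Normalised CPM (log axis) of the 9 genes in the naive, central memory and effector memory libraries; each point is 1 library and bars are 95% counting intervals, mostly smaller than the point. Ifngr2 lies at 43.0 CPM in naive and at 2.37 and 3.35 CPM in the memory libraries, while Ifngr1 lies at 136, 482.5 and 412 CPM.

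The type I receptor chains shared an order of libraries that neither chain of the gamma receptor had, with central memory highest and effector memory lowest. Ifnar1, the chain that carries TYK2 (ENSMUSG00000022967.13, chromosome 16, 91485238 to 91507441), had 4428, 11071 and 4324 counts in naive, central memory and effector memory, or 159, 309 and 135 CPM. Central memory was 1.94-fold higher than naive (interval 1.88 to 2.01), just under the ratio needed for a call, and effector memory was 1.18-fold lower than naive (1.13 to 1.23). Effector memory was 2.29-fold lower than central memory (2.21 to 2.37), which was called.

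Ifnar2, the chain that carries JAK1 and docks STAT2 (ENSMUSG00000022971.18, chromosome 16, 91372783 to 91405589), had 1560, 3353 and 1042 counts in naive, central memory and effector memory, or 56.1, 93.6 and 32.6 CPM. Central memory was 1.67-fold higher than naive (1.57 to 1.77) and effector memory 1.72-fold lower than naive (1.59 to 1.86), neither of them called. Against central memory, effector memory was 2.87-fold lower (2.68 to 3.08) and called. The gene also makes a soluble receptor form, which gene counts do not separate. A further 9.46% of its exon bases are shared with the model Gm21970, listed at 0 in all 3 libraries, and the sources used here do not say how shared reads were treated.

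The kinase Jak1, used by both receptors (ENSMUSG00000028530.14, chromosome 4, 101152367 to 101265282), was the most counted of the 9 genes, with 37414, 39480 and 19127 counts in naive, central memory and effector memory, or 1345, 1102 and 598 CPM. The effector memory library was the low one. It was 2.25-fold lower than naive (interval 2.21 to 2.29), which was called, and 1.84-fold lower than central memory (1.81 to 1.88), which was not. Central memory was 1.22-fold lower than naive (1.203 to 1.24).

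Jak2, the partner kinase on IFNGR2 (ENSMUSG00000024789.13, chromosome 19, 29251828 to 29313080), differed least over the 3 libraries, at 140, 133 and 125 CPM in naive, central memory and effector memory (3885, 4780 and 3984 counts). Its largest ratio was 1.12-fold lower in effector memory than in naive (1.07 to 1.17). The kinase that IFNGR2 binds was thus at near-equal level in the libraries where Ifngr2 itself was 18.1-fold and 12.9-fold lower than in naive.

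Of the ISGF3 subunits, Stat2 (ENSMUSG00000040033.16, chromosome 10, 128270559 to 128292849) had 3361, 3173 and 2929 counts, or 121, 88.6 and 91.6 CPM in naive, central memory and effector memory. Naive was 1.36-fold above central memory (interval 1.30 to 1.43) and 1.32-fold above effector memory (1.26 to 1.39). The memory libraries did not differ beyond counting error (ratio 1.03, interval 0.983 to 1.09). None of these was called.

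Irf9, the DNA-binding subunit of ISGF3 (ENSMUSG00000002325.15, chromosome 14, 55603571 to 55610030), had 3625, 3806 and 1727 counts, or 130, 106 and 54.0 CPM. Effector memory was the low library, 2.41-fold lower than naive (2.28 to 2.56), which was called, and 1.97-fold lower than central memory (1.86 to 2.08), which was not, although with total-count scaling it was (log2 ratio -1.02). Irf9 shares 2.28% of its exon bases with the neighbouring Rnf31, so some of its reads may be shared.

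Irf1, a target and mediator of interferon gamma (ENSMUSG00000018899.16, chromosome 11, 53770014 to 53778374), had 7925, 7817 and 4863 counts, or 285, 218 and 152 CPM in naive, central memory and effector memory. Naive was the high library and effector memory the low one, with each step beyond counting error: central memory was 1.31-fold lower than naive (1.27 to 1.35) and effector memory 1.43-fold lower than central memory (1.38 to 1.49). Effector memory was 1.87-fold lower than naive (1.81 to 1.94), which was not called. It was called with total counts and with upper quartile factors (log2 ratio -1.01 with the latter).

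**Figure D2:**
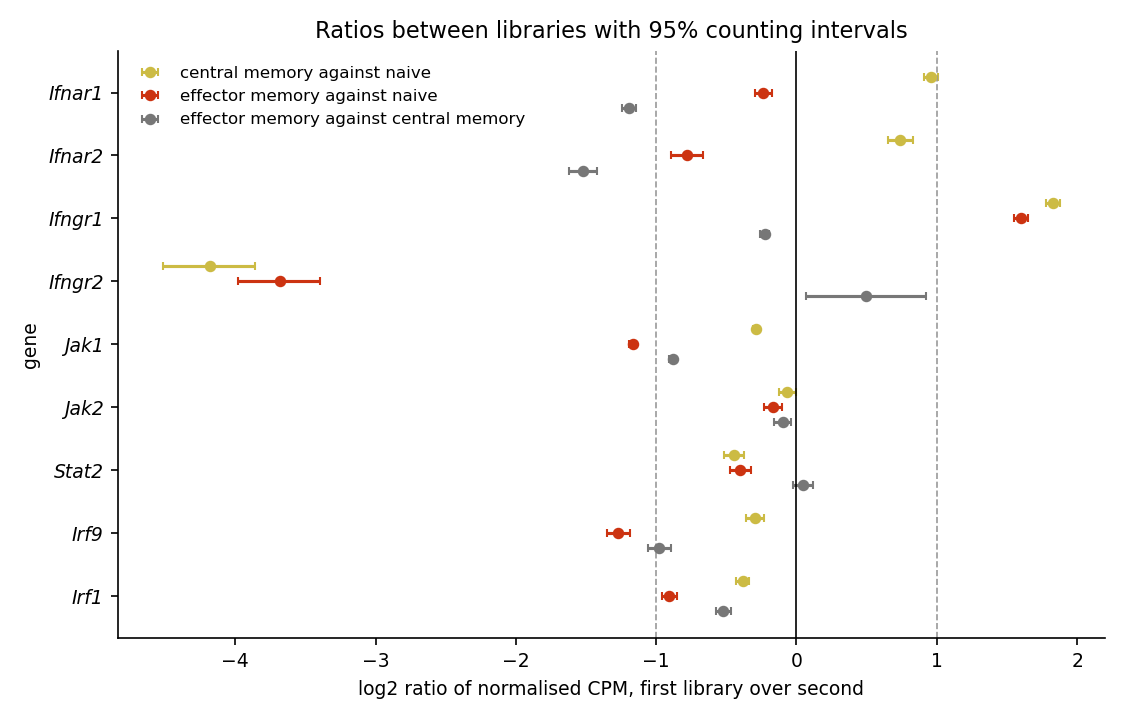
Log2 ratio of normalised CPM between 2 libraries for each of the 9 genes, with 95% counting intervals; dashed lines mark a ratio of 2 in either direction. Ifngr1 and Ifngr2 lie past opposite lines in both comparisons with naive, and Ifnar1 and Ifnar2 lie past the lower line in effector memory against central memory.

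Counted over the 9 genes, central memory against naive had 1 higher (Ifngr1) and 1 lower (Ifngr2), where 11.2% and 5.12% of all 9737 genes at that level were called higher and lower. Effector memory against naive had 1 higher (Ifngr1) and 3 lower (Ifngr2, Irf9 and Jak1), where 22.3% and 15.6% of 10087 genes were called. In effector memory against central memory none was higher and 2 were lower (Ifnar1 and Ifnar2), where the shares were 14.8% and 12.8% of 9975 genes. With 9 genes, nothing is read from a count of 1 to 3 beside these shares. The comparisons with naive share that library. Median log2 ratios of the 9 genes were -0.29, -0.78 and -0.52, beside 0.14, 0.06 and -0.06 over all measured genes. No direction of any of the 9 genes flipped between 4 ways of scaling the libraries.

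The balance between partner genes needs no scaling of the libraries, since both genes come from the same one. For each count of Ifngr2 there were 3.16 counts of Ifngr1 in naive (interval 2.96 to 3.38), but 203 in the central memory library (164 to 255) and 123 in the effector memory library (102 to 150). That balance was 64.3 times as high in central memory as in naive (interval 51.4 to 81.3) and 39.0 times as high in effector memory (31.8 to 48.1). Per kilobase of merged exons the ratios were 4.18, 269 and 163.

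The other pairs moved much less. Ifnar1 to Ifnar2 stood at 2.84, 3.30 and 4.15 in naive, central memory and effector memory, 1.16 times as high in central memory as in naive (1.08 to 1.25) and 1.46 times as high in effector memory (1.34 to 1.60). Jak1 to Jak2 stood at 9.63, 8.26 and 4.801, so that the balance was 2.01 times lower in effector memory than in naive (1.91 to 2.10). Stat2 to Irf9 was below 1 in naive and central memory, at 0.927 and 0.834, and 1.70 in effector memory, 1.83 times the naive value (1.70 to 1.98).

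**Figure D3:**
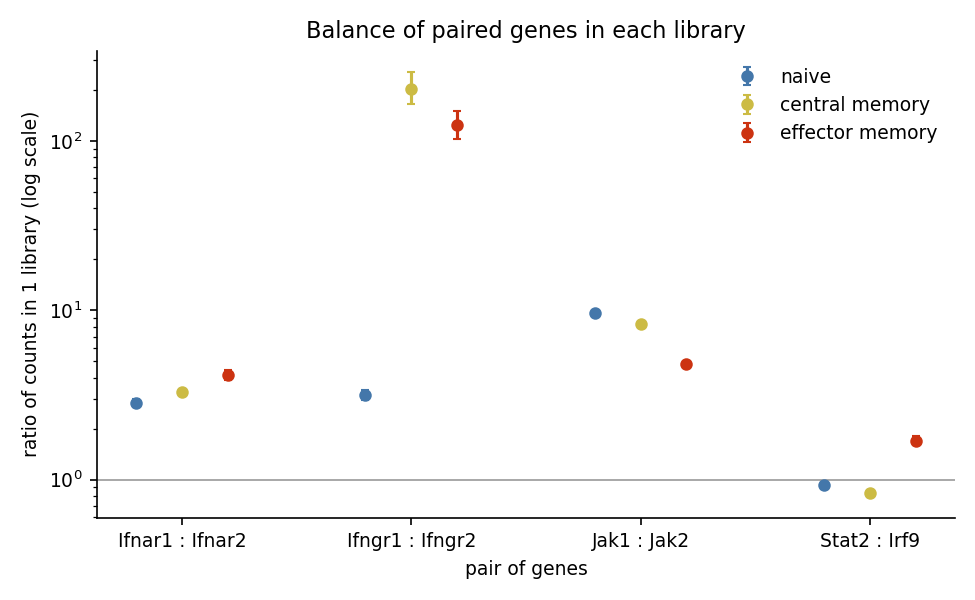
Ratio of the counts of 2 partner genes within each library (log axis), with 95% counting intervals. Ifngr1 to Ifngr2 goes from 3.16 in naive to 203 and 123 in the memory libraries, while the ratio of Stat2 to Irf9, of the lowest pair, lies between 0.834 and 1.70.

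Levels between genes were compared per kilobase of merged exons. In naive the order ran from Jak1 (186 CPM per kilobase) over Irf1 (71.6) and Ifngr1 (47.8) to Ifnar2 (16.8) and Ifngr2 (11.4). In central memory Ifngr1 stood at 170, beside 152.5 for Jak1 and 0.630 for Ifngr2. In effector memory Ifngr1 led with 145, Jak1 followed at 82.8, and Ifngr2 was again last at 0.888. In each library the rarer chain of the type I receptor was Ifnar2, at 16.8, 28.1 and 9.79 CPM per kilobase beside 26.8, 52.0 and 22.8 for Ifnar1. The first 3 genes and the last were the same with the length of the longest transcript, though Irf1 in naive then stood at 133 and Ifnar1 at 40.7, and genes of the middle changed places.

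Ifnar2, Il10rb, Ifnar1 and Ifngr2 lie in that order on the plus strand of chromosome 16, as class II cytokine receptor genes, with 39.6 kb between Ifnar1 and Ifngr2 (GENCODE M21, GRCm38). Il10rb, a chain of the interleukin 10 receptor (ENSMUSG00000022969.13, 91406164 to 91425834), stood at 28.0, 49.3 and 19.2 CPM in naive, central memory and effector memory. It had the library order of Ifnar1 and Ifnar2: 1.76-fold higher in central memory than in naive (1.62 to 1.92) and 2.56-fold lower in effector memory than in central memory (2.34 to 2.82), the second of these called. Ifngr2, the next gene, did not have that order. Past it, Tmem50b on the minus strand, 8.88 kb away, stood at 37.5, 23.1 and 13.8 CPM, 1.62-fold lower in central memory (1.48 to 1.78) and 2.72-fold lower in effector memory (2.44 to 3.05) than in naive. Tmem50b and the gene after it, Dnajc28, were included after their values were seen, by position.

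**Figure D4:**
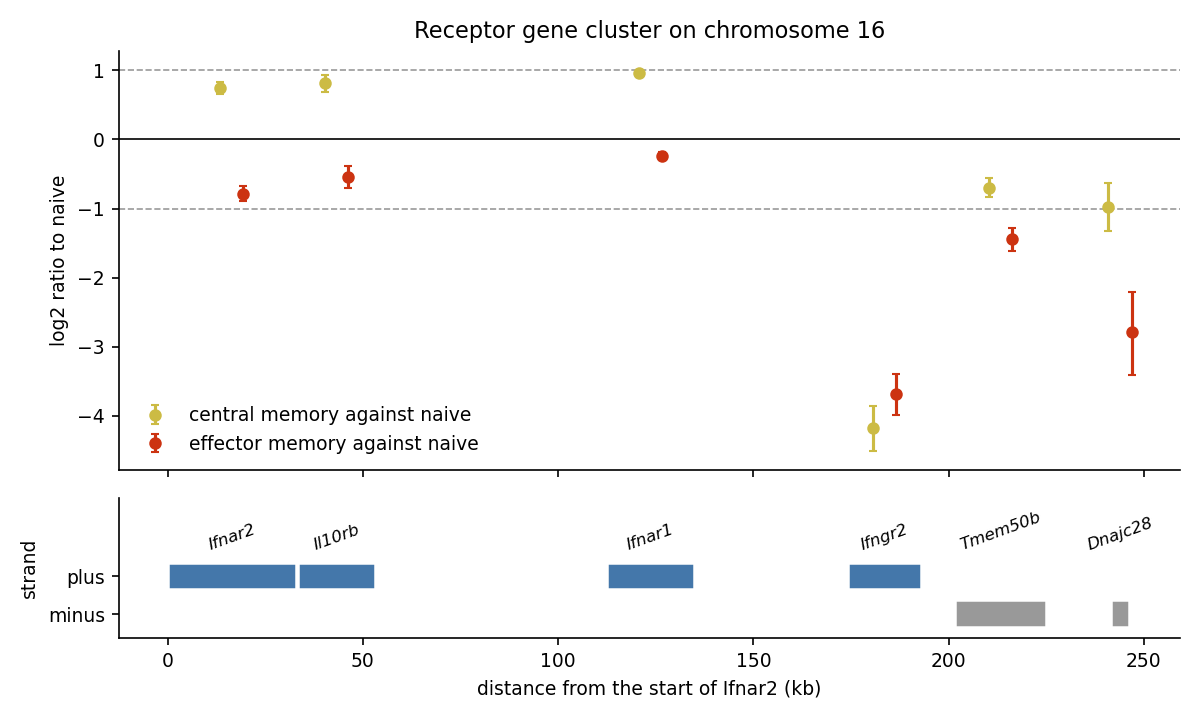
Log2 ratio to naive (top, 95% counting intervals) of the genes of the chromosome 16 cluster, placed by distance in kilobases from the start of Ifnar2, with their strand (bottom). The 3 genes on the left lie above 0 in central memory and below 0 in effector memory, and Ifngr2 lies near -4 in both.

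Of 7 other class II cytokine receptor genes in the table, Il10rb and Il10ra were measured (5 CPM or more). Il10ra, which pairs with Il10rb, was 16.5-fold higher in central memory than in naive (14.1 to 19.4) and 15.6-fold higher in effector memory (13.4 to 18.4), at 5.89, 97.2 and 92.2 CPM. Ifnlr1, the type III interferon receptor chain, named after its values were seen, was at 0 counts in all 3 libraries. Among 3 genes of IFNAR1 turnover, only Prkd2, a kinase that marks IFNAR1 for degradation, was called. It stood at 357, 360 and 77.6 CPM, 4.598-fold lower in effector memory than in naive (4.40 to 4.81). In that comparison 15.6% of all 10087 measured genes were called lower. Btrc and Csnk1a1, the others of the list, named after their values were seen, were not called in any comparison.

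The other kinases and STATs resembled Jak2 and Stat2 in their small differences, with 0 of 8 called in central memory against naive. Over all 9737 measured genes, 11.2% were called higher and 5.12% lower there. Tyk2, the kinase of IFNAR1, was highest in central memory like its receptor, at 140, 210 and 141 CPM in naive, central memory and effector memory, 1.51-fold above naive there (1.45 to 1.57). Stat4 was also highest in central memory, at 151, 288 and 161 CPM. Stat5a, at 102, 104 and 43.9 CPM, was the 1 gene called, 2.33-fold lower in effector memory than in naive (2.18 to 2.48). Of all genes, 15.6% were called lower in that comparison.

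Inhibitors of the pathway went both ways. Of 15 measured, 4 were higher and 1 lower in central memory than in naive, where 11.2% and 5.12% of all genes were called. In effector memory 3 were higher and 4 lower than in naive, beside 22.3% and 15.6% of all genes, so that the count of higher inhibitors was near the general share. Cish, a suppressor induced by STAT5, stood at 5.86, 118.5 and 175 CPM, 20.2-fold and 29.9-fold above naive. Socs2, with just 2 naive counts, was 259-fold higher in central memory (interval 71.5 to 2147). Socs1, which blocks JAK1 and JAK2, was 2.29-fold higher in central memory (2.08 to 2.53) and 1.69-fold higher in effector memory (1.52 to 1.88), the second not called. Socs3 was 7.09-fold lower in effector memory (6.56 to 7.68). Usp18, which docks on IFNAR2 and is itself induced by interferon, stood at 72.0, 12.0 and 2.10 CPM, 5.99-fold and 34.4-fold below naive.

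The other interferon regulatory factors, 10 genes, had 3 higher and 2 lower in central memory than in naive, and 3 higher and 4 lower in effector memory, to be read beside the same shares of all genes. Irf4 and Irf8, factors of lymphocyte activation, were 5.18-fold and 2.87-fold higher in central memory and 12.2-fold and 16.9-fold higher in effector memory. Irf7, which drives type I interferon genes and is a target of ISGF3, was 3.30-fold (3.11 to 3.49) and 5.08-fold (4.73 to 5.46) lower. None of 21 interferon genes reached 5 CPM, and 17 were at 0 in all 3 libraries. The most counted, chosen after its values were seen, was Ifng with 5, 38 and 41 counts in naive, central memory and effector memory.

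Many interferon targets respond to both kinds of interferon, so the lists of targets overlap in what they report. Of 29 measured targets of type I interferon, 19 were lower and 0 higher in central memory than in naive (median log2 ratio -1.39), and 20 lower and 1 higher in effector memory (median -1.81). Of the 29, 10 reached 5 CPM through naive alone and had to be lower in memory, so these counts and medians describe the list and support nothing. For example, Oas2, an antiviral oligoadenylate synthetase, stood at 109, 0.447 and 1.53 CPM, and Ifit3b had 422, 30 and 1 counts. The exception, Isg20, an exonuclease, was 2.24-fold higher in effector memory (2.03 to 2.48). Of 26 measured targets of interferon gamma, 3 were lower and 0 higher in central memory (median -0.17), and 2 lower and 0 higher in effector memory (median -0.01). All 26 reached 5 CPM in every library. Over all genes, 5.12% were called lower and 11.2% higher in central memory, and 15.6% and 22.3% in effector memory. Gbp9, a guanylate-binding protein, was lower in both, 2.97-fold (2.87 to 3.08) and 4.61-fold (4.42 to 4.82). Gbp6, at 61.4, 17.9 and 49.3 CPM, was called in central memory alone of the comparisons with naive, 3.43-fold lower (3.13 to 3.76). In effector memory it was 1.25-fold lower (1.16 to 1.34), which was not called. Tgtp1 and Tgtp2, near-identical genes whose reads can be split, were each called lower in 1 of these comparisons.

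The type I receptor chains themselves were not called in either comparison with naive, while of the gamma receptor chains Ifngr1 was called higher and Ifngr2 lower in both. Between the memory libraries, 3 of 29 type I targets were higher and 3 lower in effector memory, and 1 of 26 gamma targets was higher, where 14.8% of all genes were called higher and 12.8% lower. Of the 29, 10 were under 5 CPM in both memory libraries and could not be called here. The shares cover only genes that could be, so the type I counts are not read against them. Mx1, at 58.2, 15.8 and 47.0 CPM, was 2.98-fold higher in effector memory than in central memory (2.70 to 3.28), and Rtp4 4.28-fold lower (3.37 to 5.49).

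**Figure D5:**
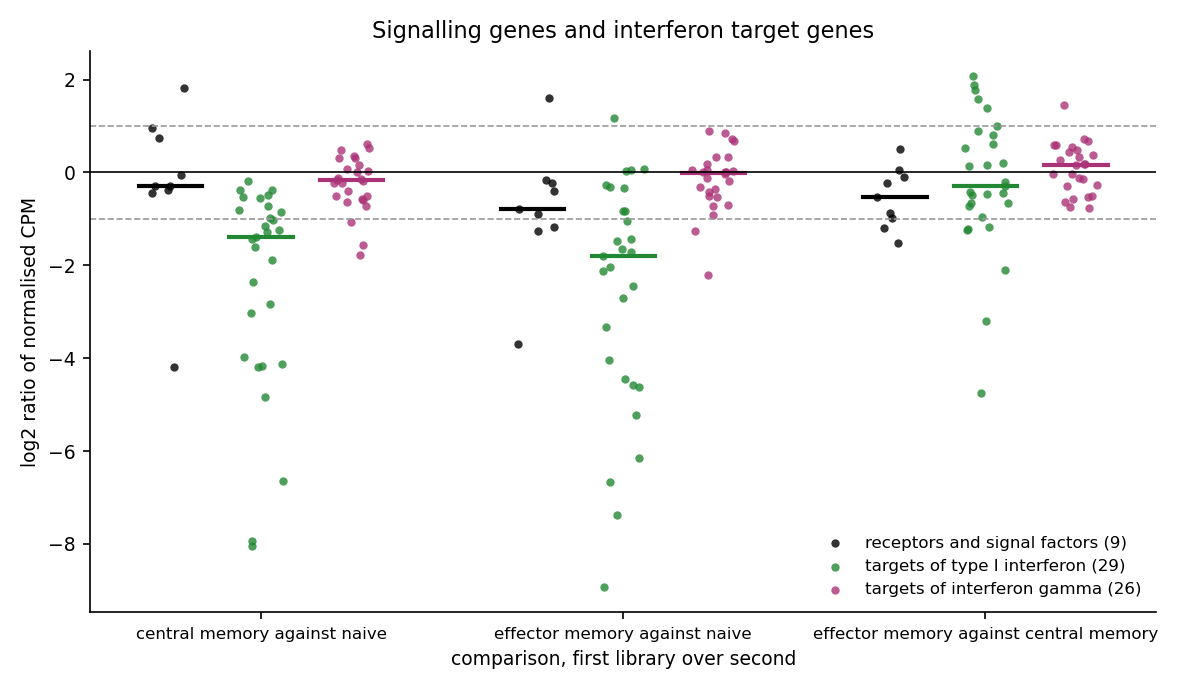
Log2 ratio of normalised CPM for the 9 receptor and signal genes, 29 targets of type I interferon and 26 targets of interferon gamma in each comparison; each point is 1 gene, bars are medians and dashed lines mark a ratio of 2. Medians of the type I targets are -1.39 and -1.81 against naive and those of the gamma targets -0.17 and -0.01.

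The genes closest in pattern were sought for the 6 members called in any comparison, by the distance between their log2 ratios to naive over 3 libraries, among 7919 genes at 20 CPM or more. Ifngr2 had few near neighbours, with 1 gene within 0.5 log2 units, against 45 for Ifngr1, 257 for Ifnar1, 255 for Ifnar2, 772 for Irf9 and 884 for Jak1. Few genes lay that far below naive at all (0.719% and 1.78% of those measured), and genes at 0 in a memory library were not searched. The gene nearest to Ifngr2 was Dusp1, a MAP kinase phosphatase, at 91.1, 5.44 and 9.26 CPM (distance 0.40), followed by the cholesterol exporter Abca1 (0.60) and Sh3pxd2a (0.65). Nearest to Ifngr1 were Gimap7, a lymphocyte GTPase, at 49.1, 177 and 141 CPM (0.08), Dhrs1 and Cep170b. Nearest to Ifnar1 were Mthfsd, Fam169b and Zmat3, and to Ifnar2 Fbxo31, Ms4a4b and Hipk1. Irf9 lay closest to Ly75, Tmem268 and Ddx21, and Jak1 to Znrf2, Kat2b and Snapc4.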

How the data were processed

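The table deposited by the authors gives, for each gene symbol, the whole-number count of reads in 3 libraries, 1 column a group (TN, TCM and TEM, read as abbreviations of naive, central memory and effector memory). Per the submitters' processing notes, CASAVA, HISAT2 2.0.5, featureCounts 1.5.0-p3 and mm10 were used. The sources used here do not give the annotation, the strand setting or the treatment of multi-mapping reads. With edgeR 4.0.16 (R 4.3.3), counts were scaled to CPM by trimmed mean of M values factors, TMM (1.04, 0.999 and 0.967 for naive, central memory and effector memory). The scaling and calls were checked on simulated Poisson counts with few genes changed, for effector memory against naive alone. Far more genes were called in the real data, so that check cannot show how well the scaling holds there. Ratios carry Clopper-Pearson intervals of the conditional binomial, and balances exact conditional odds-ratio intervals. Intervals and floors cover counting error only. Fold differences were called over all genes by the stated rule of size, which is not a test. Lengths and coordinates came from GENCODE M21 (98.7% of names matched). The members and gene lists were chosen with earlier results of these data known. Named were the 9 members, the called list members of largest ratio (up to 4 per list and comparison), any JAK, STAT or inhibitor, and the 3 nearest genes by pattern. Some of these genes are not reported here. Alternatives were other scalings (total counts, DESeq2 1.42.0, upper quartile), other minimum levels and ratios, CPM + 1 and another gene length.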

Additional observations from a re-analysis of the deposited data

How the results depend on the processing

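No paired analysis was possible because each group has 1 library, and no library could be left out. Of 243 values of the 9 genes under other settings, 230 kept their direction and their side of the call rule, 9 entered a call, 4 left one and 0 changed direction. Another scaling changed the calls of Irf1 and Irf9 alone. The other changes followed from the minimum ratio itself. At a ratio of 1.5, 3 of the 9 genes were called higher in central memory against naive in place of 1. At that ratio 5 in place of 3 were lower in effector memory against naive, and 4 in place of 2 in effector memory against central memory. At a ratio of 3 the counts of lower genes in these last comparisons were 1 and 0. The median log2 ratio of all genes moved from 0.14 with TMM to 0.0089 with upper quartile factors in central memory against naive, and from 0.06 to -0.05 in effector memory against naive. Counts over all genes moved by over 1.5 times with the limits. In central memory against naive, 1092 higher became 544 at 20 CPM, 2020 with no minimum, 2143 at a ratio of 1.5 and 636 at 3, and 499 lower became 937 at 1 CPM, 286, 1540, 1051 and 264. In effector memory against naive, 2247 higher became 3566 with no minimum and 1446 at a ratio of 3, and 1576 lower became 2596, 2649 at a ratio of 1.5, and 750. In effector memory against central memory, 1479 higher became 2830, 2396 and 859, and 1273 lower 1980, 2528 and 514, in the order no minimum, 1.5 and 3. With genes from 5 CPM, 1 of the 3 nearest genes was shared for Ifngr2 and Ifnar2 and 2 for Ifngr1 and Ifnar1.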
